A study of Mus musculus with 4 samples.

Results

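Mitotic kinesins, spindle proteins and cytokinesis genes were examined in cells of the 4T1 line that had been sorted by mitochondrial membrane potential (MMP). 4T1 comes from a mouse mammary tumor and serves as a model for metastatic disease of the triple negative type. The 40 genes were chosen by name, and all 40 were found among the 20197 genes of the normalized table. They comprised 25 genes that act early in mitosis (centrosome separation, spindle assembly and chromosome alignment), 11 that act late (central spindle, cleavage furrow and abscission) and 4 to which no stage was assigned. The wild-type cells of both groups were labelled with MitoSpy Red at 20 nM, a dye whose uptake into mitochondria follows their potential, and the brightest 5% formed the high MMP group and the dimmest 5% the low MMP group. Each group had 2 samples of 100000 cells, numbered 1 and 2, and all came from 1 cell line, so no animal or tumor varied between them. Cells were sorted on the dye alone, and the stage of the cell cycle was not fixed in either group.

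A dividing cell builds a bipolar spindle from microtubules, aligns its chromosomes on it, and then pinches apart between the separating chromosomes. Kinesins are motors that slide, shorten or carry cargo along microtubules, and many of those used in division are made mainly late in the cycle and destroyed as mitosis ends. Their transcripts therefore serve as common markers of cells that prepare for or pass through division, and the same genes are often abundant in tumors.

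Depth was even across the libraries, with 22591970 to 26395015 recovered reads, and the genes described here had 179 to 17294 reads in each library. The lowest count belonged to *Psrc1*, and every other gene had at least 241 reads. Values below are the deposited normalized reads, scaled to a sum of 20000000 in every library. Pairs of values are in the order of replicates 1 and 2. A difference is the high MMP mean less the low MMP mean of log2(value + 1). Epithelial markers were abundant, with *Epcam*, an epithelial adhesion protein, at 3647 to 4619 normalized reads. Summed over the markers in the table, normalized reads were 72.0 to 158 for immune cells (4 of 7 markers), 1.74 to 6.20 for endothelial cells (2 of 5) and 337 to 606 for fibroblasts (4 of 6). The immune sum was mostly *Cd68*, a lysosomal protein of macrophages (59.9 and 139 in high, 149 and 91.2 in low MMP cells), which overlapped between the groups, while the leukocyte marker *Ptprc* had 0 to 2 reads per library. The fibroblast sum moved with the groups, at 337 and 375 in high against 548 and 606 in low MMP cells. It was mostly *Pdgfra*, a growth factor receptor (319 and 363 against 536 and 589, difference -0.72), called lower by DESeq2 (adjusted p 0.0412), whereas the collagen gene *Col1a2* had 0 to 4 reads per library. The part of these markers in the results below was not tested.

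To ask how the machinery of division differed between cells of high and low MMP, the 40 genes were compared between the groups. As a whole they were more abundant in high MMP cells. They took 0.609% and 0.674% of all reads in the high MMP libraries against 0.475% and 0.474% in the low MMP libraries. The difference was above 0 for 39 of the 40 genes (41.4% of all genes), and 8 genes differed by at least 0.8. The median difference was 0.43, while the median over all genes tested was -0.04. For 36 genes both high MMP libraries were above both low MMP libraries, a pattern seen in 13.5% of all genes, and 4 genes overlapped.

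No gene of the 40 passed the threshold in limma with adjustment over all genes (adjusted p under 0.05), where 0% of all genes tested passed and the smallest adjusted p was 0.472. At an unadjusted limma p under 0.05, 30 of the 40 genes were higher and 0 lower in high MMP cells, against 3.95% of all genes higher. That count of 30 was 14 without low MMP 1 and 18 without low MMP 2. On recovered reads, edgeR with no block called 0 of the 40 with 0% of all genes called, and had 33 of them higher at an unadjusted p under 0.05, against 3.22% of all genes. DESeq2 called 18 of the 40, all higher, where it called 0.663% of tested genes as higher. The labels number the samples without naming a culture or day. The study's legend counts them as independent experiments without linking the numbers, and p-values measure the spread between these samples only. In bulk RNA, a larger share of cells in division and more of these transcripts per cell cannot be told apart.

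**Figure D1:**
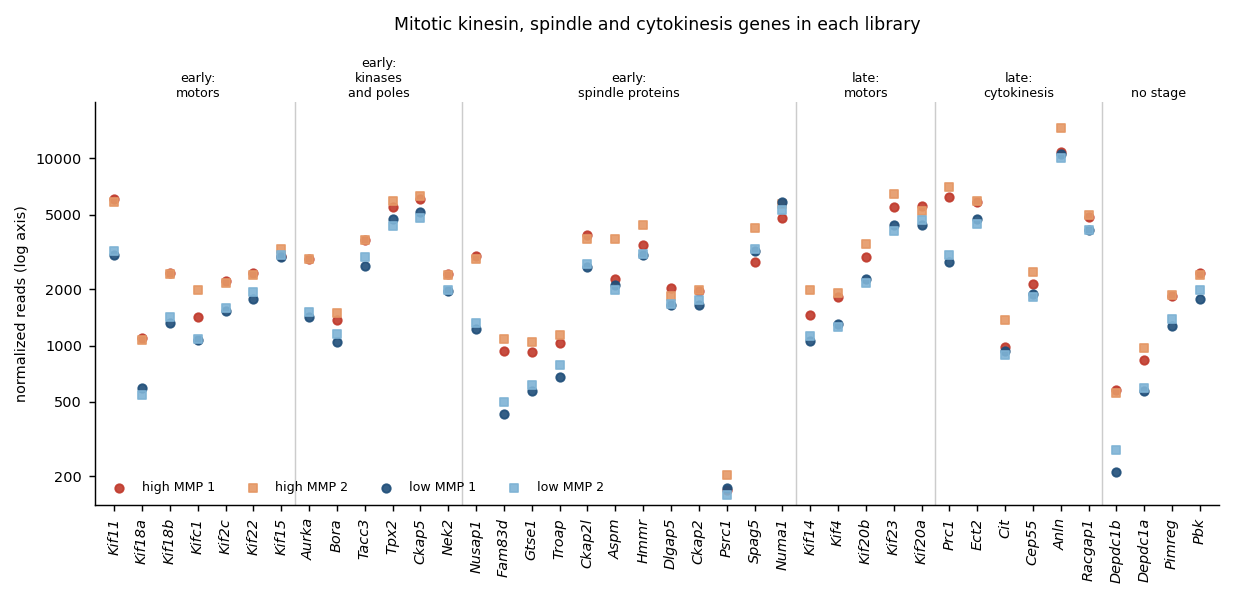
Normalized reads (log axis) of the 40 genes in the 4 libraries, grouped by role and ordered by difference within each role. For 36 genes both high MMP points lie above both low MMP points, and *Kif15*, *Psrc1*, *Spag5* and *Numa1* overlap.

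Of the early motors, the smallest unadjusted limma p (2.77e-04) was that of *Kif11*, the motor that pushes spindle poles apart (ENSMUSG00000012443, GRCm38 chromosome 19, 37376403 to 37421859, protein-coding). *Kif11* had 6055 and 5837 normalized reads in high MMP cells and 3041 and 3214 in low MMP cells. Both high MMP values lay well above both low ones, and the replicates within each group were close. The means were 5946 ± 154 and 3127 ± 122 (SD, n = 2 each), a difference of 0.93 (SE 0.08, 95% interval 0.70 to 1.15). *Kif11* was called by DESeq2 (adjusted p 1.16e-08), whereas its adjusted p was 0.472 in limma and 0.484 in edgeR. *Kif15* (ENSMUSG00000036768, chromosome 9, 122951046 to 123018733, protein-coding), a motor that can keep the spindle bipolar when *Kif11* is blocked, stood apart from it. *Kif15* had 3012 and 3295 normalized reads in high MMP cells and 2966 and 3051 in low MMP cells, so its groups overlapped. The difference of *Kif15* was 0.07 (SE 0.09, 95% interval -0.17 to 0.30), with a limma adjusted p of 0.888. Within a library, the ratio of *Kif11* to *Kif15* was 2.01 and 1.77 in high MMP cells against 1.03 and 1.05 in low MMP cells.

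Transcripts of the motors that act on microtubule ends showed a graded pattern. *Kif18a*, which limits the swinging of chromosomes at the spindle center, had 1096 and 1071 normalized reads in high MMP cells and 593 and 545 in low MMP cells. Its relative *Kif18b*, which shortens the microtubules that reach the cell cortex, had 2431 and 2418 against 1323 and 1423. These differences were 0.93 and 0.82, and DESeq2 called both genes (adjusted p 4.42e-06 and 5.76e-06). *Kif2c*, the microtubule-shortening partner of *Kif18b*, had 2222 and 2147 against 1527 and 1578, a smaller difference of 0.49 (DESeq2 adjusted p 0.0404). The ratio of *Kif18b* to *Kif2c* was accordingly 1.09 and 1.13 in high and 0.87 and 0.90 in low MMP libraries, whereas that of *Kif18a* to *Kif18b* overlapped (0.45 and 0.44 against 0.45 and 0.38). *Kif22*, a motor on chromosome arms, had 2432 and 2387 against 1776 and 1941 and was not called by DESeq2 (adjusted p 0.295). *Kifc1*, a minus-end motor that gathers spindle poles, had 1422 and 1984 against 1072 and 1084, with both high MMP values above both low ones. Its difference of 0.64 was 0.40 without high MMP 2. Of the 75-base words in *Kifc1* transcripts, 26.1% also occur in other genes, mainly in its near copy *Kifc5b* (793 and 1136 against 572 and 604), so reads of these 2 genes may have been split.

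Among the kinases and pole proteins, *Aurka* stood out. It encodes Aurora A, the kinase that drives centrosome maturation and spindle assembly (ENSMUSG00000027496, chromosome 2, 172356190 to 172370535, protein-coding). *Aurka* had 2892 and 2902 normalized reads in high MMP cells and 1429 and 1502 in low MMP cells. The high MMP replicates were almost equal and nearly double the low ones in level. The means were 2897 ± 7.0 and 1466 ± 52.0 (SD, n = 2 each), with a difference of 0.98 (SE 0.08, 95% interval 0.78 to 1.19). Its adjusted p was 4.50e-09 in DESeq2 and 0.472 in limma.

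Transcripts of proteins that work with Aurora A differed less. *Tpx2*, which activates Aurora A on the spindle, had 5509 and 5924 normalized reads in high MMP cells and 4771 and 4337 in low MMP cells. *Bora*, its cytoplasmic cofactor toward Polo-like kinase, had 1374 and 1487 against 1044 and 1154. Neither pair of groups overlapped, but the differences of 0.33 and 0.38 were not called by DESeq2 (adjusted p 0.445 and 0.390). Per library, the ratio of *Aurka* to *Tpx2* was 0.52 and 0.49 in high against 0.30 and 0.35 in low MMP cells, and that of *Aurka* to *Bora* 2.11 and 1.95 against 1.37 and 1.30. *Tacc3* and *Ckap5*, whose proteins form a complex on spindle microtubules, kept nearly one ratio. *Tacc3* had 3645 and 3673 against 2677 and 2956, and *Ckap5*, a microtubule polymerase, had 6070 and 6320 against 5149 and 4812. The ratio of *Tacc3* to *Ckap5* was 0.60 and 0.58 in high and 0.52 and 0.61 in low MMP cells, so the groups overlapped. *Nek2*, a kinase that parts the centrosomes, had 2397 and 2379 against 1951 and 1982, a difference of 0.28.

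Of the 12 genes of spindle proteins without motor or kinase activity, 5 were called by DESeq2 and the others spread down to the single gene below 0. *Nusap1* (ENSMUSG00000027306, chromosome 2, 119618298 to 119651244, protein-coding) bundles microtubules near chromosomes and had the smallest unadjusted limma p of the 40 genes, 8.55e-05. It had 2991 and 2912 normalized reads in high MMP cells and 1220 and 1320 in low MMP cells. The difference was 1.22 (SE 0.08, 95% interval 0.99 to 1.44), with a DESeq2 adjusted p of 2.85e-13 and a limma adjusted p of 0.472. *Fam83d*, which brings casein kinase 1 to the spindle, had 940 and 1089 against 432 and 499 and a difference of 1.12. *Gtse1*, a microtubule-tip protein that restrains *Kif2c*, had 924 and 1040 against 573 and 613 and a difference of 0.73. In both genes the lower high MMP value was clear of the higher low MMP value. *Troap* had 1033 and 1140 against 676 and 789, and *Ckap2l*, a protein of spindle poles, had 3901 and 3695 against 2639 and 2712. DESeq2 called these 4 genes too, with adjusted p-values of 7.85e-08, 0.00173, 0.0412 and 0.0224. The related *Ckap2* differed by 0.20 (1950 and 1969 against 1652 and 1758) and was not called, and the ratio of *Ckap2* to *Ckap2l* was lower in both high MMP libraries (0.50 and 0.53 against 0.63 and 0.65).

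Transcripts of other spindle proteins differed little or differed between the high MMP replicates. *Dlgap5*, which stabilizes fibers at kinetochores, had 2022 and 1837 normalized reads against 1642 and 1675 (difference 0.22). *Hmmr*, a spindle pole protein, had 3444 and 4387 against 3042 and 3081 (difference 0.34, and 0.17 without high MMP 2). *Aspm*, which holds microtubule minus ends at the poles, had 2281 and 3691 against 2119 and 1987. Its high MMP 1 value was thus only slightly above the low MMP libraries, and its difference fell from 0.50 to 0.15 without high MMP 2. *Spag5* (ENSMUSG00000002055, chromosome 11, 78301529 to 78322457, protein-coding), which helps to hold chromosomes on the spindle, overlapped, with 2783 and 4229 against 3195 and 3278. Its difference of 0.08 (SE 0.22, 95% interval -0.52 to 0.69, limma adjusted p 0.964) became -0.22 without high MMP 2. *Psrc1*, a protein of the mitotic spindle, also overlapped, with 169 and 203 against 174 and 158 (difference 0.16, and 0.02 without high MMP 2). *Numa1*, which ties dynein to the poles and the cortex and is made throughout the cycle, was the one gene with a difference below 0. *Numa1* had 4832 and 5686 against 5844 and 5330 (difference -0.09, 95% interval -0.42 to 0.24), and without high MMP 1 the difference was 0.03.

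**Figure D2:**
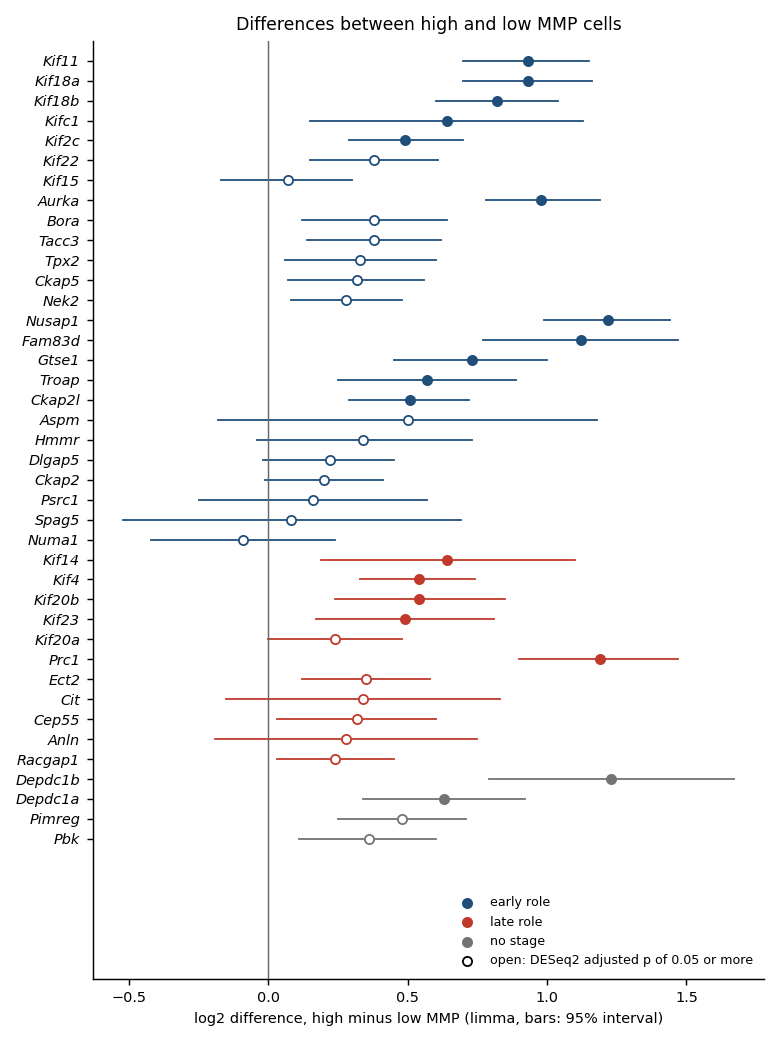
Difference of each gene on the log2(value + 1) scale with its 95% interval from limma (bars), with early genes in blue, late genes in red and genes without a stage in grey. Filled points mark the 18 genes called by DESeq2. Early and late genes span overlapping ranges, and *Nusap1*, *Prc1*, *Fam83d* and *Depdc1b* differ by more than 1.

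All 11 late genes were higher in both high MMP libraries than in both low ones, and the late motors were closer to each other than the early motors were. *Kif4* (ENSMUSG00000034311, chromosome X, 100625737 to 100727214, protein-coding), which sets the length of the central spindle, had 1819 and 1901 normalized reads in high MMP cells and 1300 and 1262 in low MMP cells. Its means were 1860 ± 58.5 and 1281 ± 27.1 (SD, n = 2 each), a difference of 0.54 (SE 0.08, 95% interval 0.33 to 0.74). *Kif20b* (ENSMUSG00000024795, chromosome 19, 34922361 to 34975745, protein-coding), which promotes abscission, had 2975 and 3508 against 2272 and 2157, with a difference of 0.54 (SE 0.11, 95% interval 0.24 to 0.85). The DESeq2 adjusted p was 0.0204 for each of these 2 genes, and that of limma was 0.472 for each. *Kif23*, the motor of centralspindlin, had 5516 and 6458 against 4422 and 4096 and was called by DESeq2 (adjusted p 0.0449). *Kif14*, which recruits citron kinase, had 1462 and 1972 against 1057 and 1118 and was also called (adjusted p 0.0165), with a difference of 0.64 that was 0.43 without high MMP 2. *Kif20a*, which carries Aurora B to the central spindle, had 5567 and 5250 against 4432 and 4705 and a difference of 0.24, the smallest of the late motors. Exons of *Cdc23* on the other strand cover 29.3% of *Kif20a* exons, those of *Pdzd11* cover 15.1% of *Kif4* and those of *Rccd1* 11.1% of *Prc1*. The kit keeps strand, but the strand setting of the counting is not given in the sources used here.

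*Prc1* was separated from the rest of the late genes. Its protein bundles antiparallel microtubules and founds the central spindle (ENSMUSG00000038943, chromosome 7, 80294450 to 80316259, protein-coding). *Prc1* had 6256 and 7054 normalized reads in high MMP cells and 2799 and 3039 in low MMP cells. Both high MMP values were more than double both low ones. The means were 6655 ± 564 and 2919 ± 170 (SD, n = 2 each), a difference of 1.19 (SE 0.11, 95% interval 0.90 to 1.47), with an adjusted p of 3.03e-13 in DESeq2 and 0.472 in limma. No other late gene differed by more than 0.64. Relative to its partners *Kif4* and *Kif20a*, *Prc1* was also higher in high than in low MMP libraries. The ratio of *Prc1* to *Kif4* was 3.44 and 3.71 in high and 2.15 and 2.41 in low MMP cells, and that of *Prc1* to *Kif20a* 1.12 and 1.34 against 0.63 and 0.65.

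The genes of the cleavage furrow and of abscission had smaller differences, and DESeq2 called none of the 5 beside *Prc1*. *Ect2*, which activates RhoA at the equator, had 5853 and 5911 normalized reads against 4762 and 4472. *Racgap1*, the partner of *Kif23* in centralspindlin, had 4864 and 4965 against 4157 and 4166. Both were clear of the low MMP values, with differences of 0.35 and 0.24. *Cep55*, which recruits the abscission machinery to the midbody, had 2131 and 2468 against 1878 and 1809, a difference of 0.32. The furrow scaffold *Anln* was the most abundant of the 40 genes, with 10847 and 14472 against 10594 and 10101. Citron kinase, *Cit*, had 982 and 1367 against 935 and 894. In *Anln* and *Cit* high MMP 1 was close to the low MMP libraries, and without high MMP 2 the differences fell from 0.28 to 0.07 and from 0.34 to 0.10. The ratio of the partners *Kif23* and *Racgap1* was 1.13 and 1.30 in high against 1.06 and 0.98 in low MMP libraries. The groups did not overlap, but the high MMP replicates were further apart than the groups. The ratio of *Kif14* to *Cit* was 1.49 and 1.44 against 1.13 and 1.25. Differences of these ratios were not tested.

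**Figure D3:**
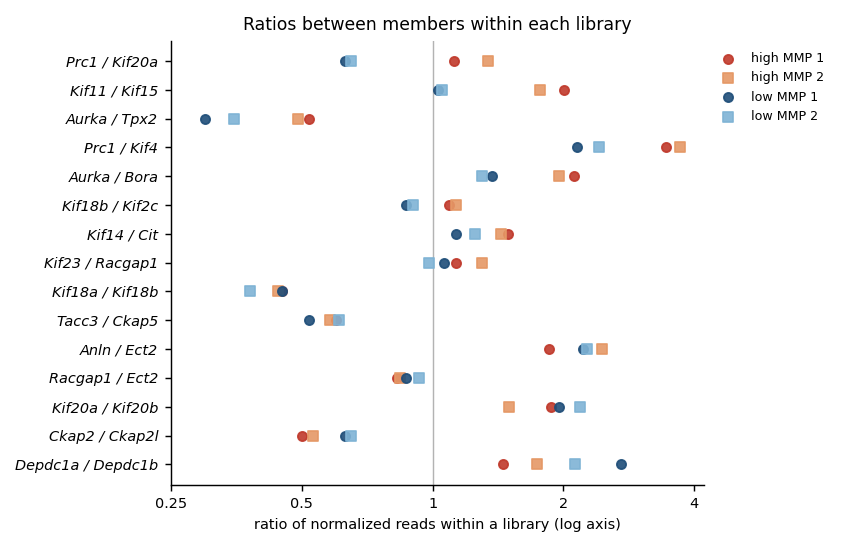
Ratio of normalized reads of pairs of genes within each library (log axis), for partners and relatives named in the text, ordered by the log2 difference of the ratio. The high MMP points lie to the right of the low MMP points for *Prc1* over *Kif20a*, *Kif11* over *Kif15* and *Aurka* over *Tpx2*, and they overlap for *Tacc3* over *Ckap5*.

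The 4 genes without a stage were higher in both high MMP libraries. *Depdc1b*, a protein linked to loss of adhesion before division, had 577 and 556 normalized reads in high MMP cells and 210 and 277 in low MMP cells. Its difference of 1.23 (SE 0.16) was the largest of the 40, and DESeq2 called it (adjusted p 1.07e-06). Its relative *Depdc1a* had 836 and 968 against 571 and 590 (difference 0.63, DESeq2 adjusted p 0.0165), so the ratio of *Depdc1a* to *Depdc1b* was 1.45 and 1.74 in high and 2.72 and 2.13 in low MMP cells. Of its 75-base words, 56.0% are shared, mainly with *Gm5596*, which had 13.3 to 20.1 normalized reads. *Pimreg*, which binds the clathrin assembly protein CALM, had 1850 and 1857 against 1271 and 1391. *Pbk*, a mitotic kinase, had 2447 and 2368 against 1783 and 1982. DESeq2 called neither of these (adjusted p 0.0667 and 0.402).

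Early and late genes were then set side by side. The median difference was 0.38 for the 25 early genes and 0.35 for the 11 late genes. DESeq2 called 11 and 5 of them, where it called 0.663% of tested genes as higher, while limma and edgeR without a block called 0 in both stages. The range was -0.09 to 1.22 for early and 0.24 to 1.19 for late genes. By role, the median was 0.64 for early motors, 0.35 for kinases and pole proteins, 0.42 for other spindle proteins, 0.54 for late motors and 0.33 for other cytokinesis genes. The spread within each stage was thus larger than the gap between the stages. The replicates moved the order of the stages. Between same-numbered samples, the early median was 0.41 (numbers 1) and 0.45 (numbers 2), and the late median 0.32 and 0.59. The shared numbers are not shown to pair these samples. Without high MMP 1 the late median was 0.57 and the early median 0.47. Late genes were also higher in high MMP 2 than in high MMP 1, by a median of 0.21, against 0.06 for early genes and 0.02 for all genes.

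The high MMP replicates were furthest apart for a few early and late genes. High MMP 2 was above high MMP 1 by at least 0.3 for 7 of the 40 genes, and high MMP 1 was above high MMP 2 by that much for 0. These 7, of which *Cit*, *Kif14* and *Anln* are late genes, were *Aspm* (0.69), *Spag5* (0.60), *Kifc1* (0.48), *Cit* (0.48), *Kif14* (0.43), *Anln* (0.42) and *Hmmr* (0.35), named after their values were seen. *Aurka*, *Kif11*, *Kif18a*, *Kif18b* and *Nusap1* differed by -0.05 to 0.00 between the same libraries. They were the early genes of smallest unadjusted limma p, a choice that itself favors genes with close replicates. *Prc1* and *Fam83d*, which also had large differences between the groups, were 0.17 and 0.21 higher in high MMP 2. The low MMP replicates were at least 0.3 apart for 1 gene, *Depdc1b* (0.40). Across 12902 genes averaging 10 or more, replicate differences had an SD of 0.398 in high and 0.288 in low MMP cells. The share of all genes at least 0.3 apart was not counted, so these genes are not shown to vary more than others.

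Levels per length of exon differed widely among the 40 genes. As the mean of the 4 libraries, normalized reads per kilobase ran from 52.4 for *Psrc1* to 1269 for *Anln*, with a median of 526 against 34.9 over all genes with a known length. *Pbk* (1198), *Kif20a* (1150), *Tpx2* (1098) and *Ckap2l* (1032) followed *Anln*, and *Cit* (63.6) and *Kif18a* (84.0) were near the lower end. At the lower end of this order the differences were 0.16 for *Psrc1*, 0.34 for *Cit* and 0.93 for *Kif18a*. At the upper end they were 0.28 for *Anln*, 0.36 for *Pbk*, 0.24 for *Kif20a*, 0.33 for *Tpx2* and 0.51 for *Ckap2l*. Whether level and difference ran together over the 40 genes was not tested.

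Promoters were examined next, because genes of late division often share the CHR element (TTTGAA or TTCGAA), bound by the MuvB complexes, and boxes for the factor NF-Y (CCAAT). RefSeq windows on GRCm38.p6, from 250 bases before to 50 after the annotated start, were found for 33 of the 40 genes. Motifs were sought on both strands, and a CCAAT match can share 1 base with a CHR match. The last 40 bases lay in a GENCODE transcript of the gene for 24 of the 33. A CHR motif was present in 25 of the 33 windows (75.8%) against 19.4% of all 27025 windows, and in 22 of 33 (66.7%) it began within 60 bases of the start against 5.9% of all. CCAAT was present in 23 of 33 (69.7%) against 37.9%, and at least 2 copies in 16 of 33 (48.5%) against 12.2%. Among the 7876 windows of genes averaging 100 or more, the shares were 13.5% for CHR, 3.8% for CHR within 60 bases and 39.2% for CCAAT. The windows of early genes had CHR in 15 of 22 and 2 or more CCAAT in 14 of 22, and those of late genes in 9 of 10 and 2 of 10.

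A CHR motif was present in 13 of 17 windows of genes called by DESeq2 and in 12 of 16 of those not called. CCAAT was present in 13 of 17 and 10 of 16, and at least 2 copies in 8 of 17 and 8 of 16. Below are the bases from 130 before to 30 after the start, on the strand of the gene, for the late and the early gene of smallest unadjusted p and the 2 genes nearest to no difference, with *Kif11* added after its motifs were seen. Capitals mark CHR and CCAAT matches on either strand.
Prc1 (chr7:80294321-80294480, + strand): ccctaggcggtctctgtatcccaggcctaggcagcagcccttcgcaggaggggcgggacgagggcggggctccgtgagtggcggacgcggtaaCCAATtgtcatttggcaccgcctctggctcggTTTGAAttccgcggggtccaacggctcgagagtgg
Nusap1 (chr2:119618168-119618327, + strand): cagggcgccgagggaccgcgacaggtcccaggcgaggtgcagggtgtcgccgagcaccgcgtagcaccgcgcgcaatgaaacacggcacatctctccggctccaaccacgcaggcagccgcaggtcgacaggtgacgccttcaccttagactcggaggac
Kif11 (chr19:37376252-37376411, + strand): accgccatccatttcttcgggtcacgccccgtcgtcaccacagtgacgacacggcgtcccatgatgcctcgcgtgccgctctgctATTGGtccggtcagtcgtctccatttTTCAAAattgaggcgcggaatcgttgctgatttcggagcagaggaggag
Kif15 (chr9:122950951-122951110, + strand): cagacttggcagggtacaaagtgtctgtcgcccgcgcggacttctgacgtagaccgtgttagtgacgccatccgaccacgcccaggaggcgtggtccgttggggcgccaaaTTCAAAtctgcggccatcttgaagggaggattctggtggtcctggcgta
Spag5 (chr11:78301461-78301620, + strand): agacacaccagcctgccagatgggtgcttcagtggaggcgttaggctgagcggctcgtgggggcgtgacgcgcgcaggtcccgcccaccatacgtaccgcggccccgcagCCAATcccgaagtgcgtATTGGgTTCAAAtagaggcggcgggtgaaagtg

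Counted from the RefSeq start, *Kif11* and *Kif15* had a CHR match on the reverse strand at the same distance, beginning at base -19. *Kif11* alone of the pair had a CCAAT box (base -45). The GENCODE starts of both genes (37376403 and 122951046) differ from the RefSeq starts, so the equal distance depends on the annotation used. *Kif15* had a further CHR match at base -234, outside the bases shown. Their differences were 0.93 and 0.07. *Prc1* had a CHR match at base -5 and a CCAAT box at base -37. *Spag5* carried CHR at base 4 and CCAAT at bases -20 and -3 with a difference of 0.08, and the window of *Nusap1* held neither motif.

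**Figure D4:**
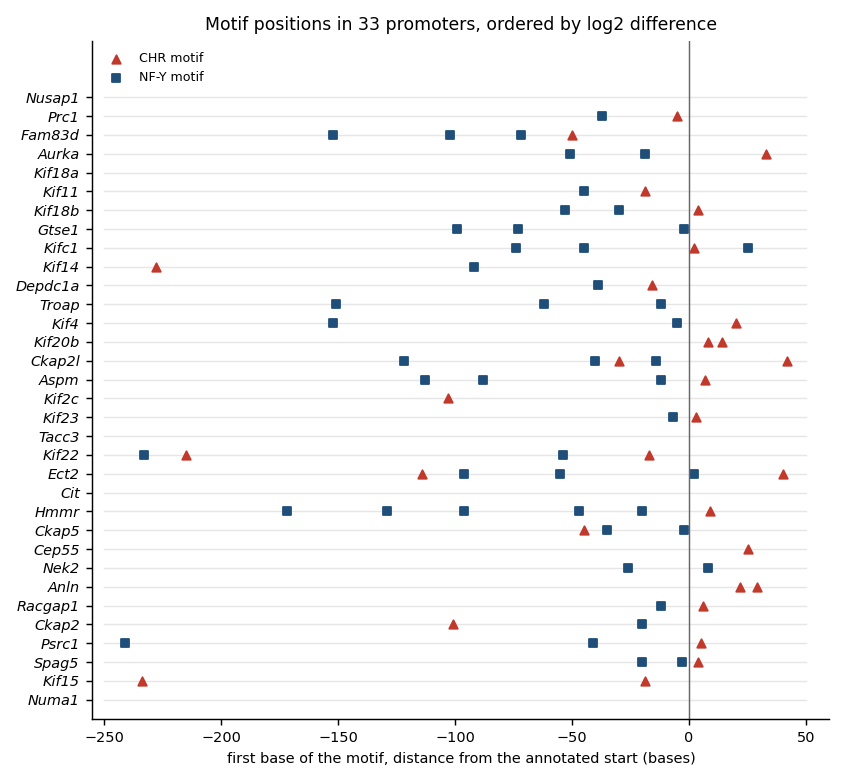
First base of each CHR motif (red triangles) and NF-Y motif (blue squares) relative to the annotated start, in bases, for the 33 genes with a window, ordered by difference with the largest at the top. CHR motifs gather within 60 bases of the start in 22 of the 33 windows, at the top and the bottom of the order alike.

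Other genes of the microtubule and cytokinesis apparatus were compared with the 40 genes. A list of other kinesin genes, light chains and an accessory subunit included (28 of 32 in the table), had a median difference of 0.02. It had 0 genes at an unadjusted limma p under 0.05 in either direction. Genes of microtubule nucleation (22) had a median of -0.07 and again 0 such genes, general microtubule proteins (22) a median of 0.09 with 2 higher, *Clasp1* (0.28) and *Katnal1* (0.25), and abscission genes (19) a median of -0.01 with 1 lower, *Chmp6* (-0.21). The contractile ring and septins (20) had a median of 0.06 with 1 higher, *Myl9*, on at most 1 read per library. DESeq2 called 0 genes in these 5 lists. Of all genes, 3.95% were higher and 6.01% lower at an unadjusted limma p under 0.05. DESeq2 called 0.663% of tested genes as higher and 0.291% as lower. Counts of 0 to 2 in lists this short do not set them apart from all genes. The chromosomal passenger complex, Polo-like kinases and shugoshins (8) resembled the 40 genes in sign, with a median of 0.56, 6 higher at an unadjusted p under 0.05 and 5 called by DESeq2. *Aurkb*, Aurora B, differed by 0.88 and *Plk1*, Polo-like kinase, by 0.63.

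Tubulins, the subunits of the microtubule itself, were higher on the whole, with a median of 0.34 over 10 genes, but DESeq2 called only *Tuba1c* (8311 and 7307 against 4122 and 4776). Their median was 0.62 between the samples numbered 1 and 0.03 between those numbered 2, against 0.40 and 0.48 for the 40 genes. These shared numbers are not shown to pair the samples. From replicate 1 to replicate 2, the median difference of tubulins was -0.27 in high and 0.21 in low MMP cells. For the 40 genes it was 0.08 and 0.04. Genes of S phase (42) were lower in high MMP cells, opposite to the 40 genes. Their median was -0.36, 25 were lower at an unadjusted limma p under 0.05 (6.01% of all genes) and 0 higher, and DESeq2 called 9 lower, where it called 0.291% of tested genes as lower. Both high MMP libraries were below both low ones for 32 of the 42, against 24.5% of all genes. *Ccne2*, cyclin E2, differed by -0.91 and *Casp8ap2*, a cofactor of histone gene expression, by -0.74. The S-phase genes thus also differed between the groups, in the opposite direction, and their part in the differences of the 40 genes was not tested.

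**Figure D5:**
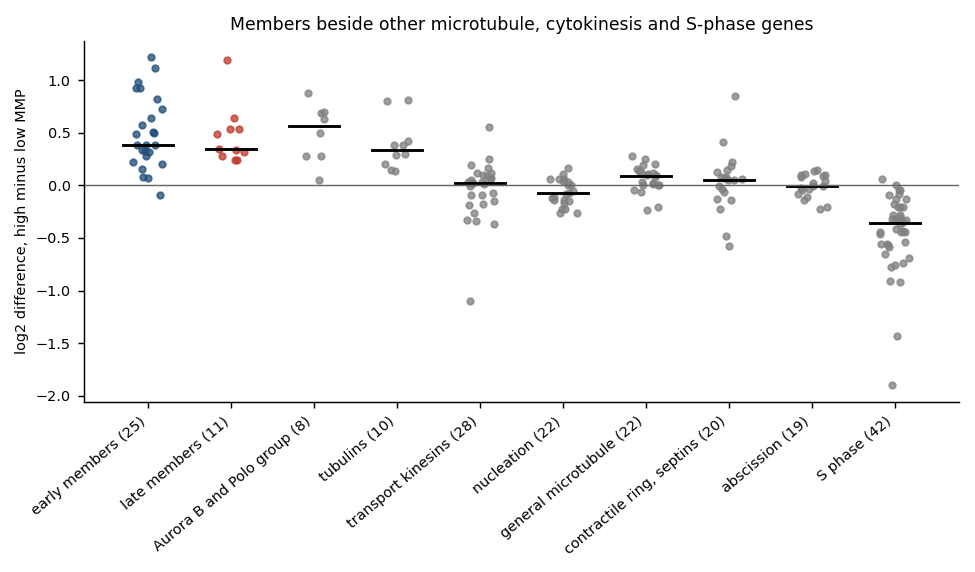
Difference of each gene on the log2(value + 1) scale in 10 lists, with the number of genes in brackets and the median as a black bar. Medians of the early and late genes are 0.38 and 0.35, and that of S-phase genes is -0.36. The list of other kinesin genes is labelled transport kinesins. Its median and those of nucleation, general microtubule, contractile ring and abscission genes lie between -0.07 and 0.09.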

How the data were processed

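RNA of 4 sorted samples (200 ng each) was sequenced from stranded mRNA libraries. The authors aligned reads to the mouse transcriptome (GRCm38/mm10) with STAR, quantified genes (HTSeq is also named in the submitters' processing notes), normalized to library size and kept genes expressed in at least 2 of the 4 samples. Versions, annotation release and the handling of multi-mapping reads are not given in the sources used here. The deposited values are therefore a normalized signal per gene summing to 20000000 per library. Division by 1 step per library gave whole reads for 100.00% of values (within 0.05 reads), and these served the count models. Symbols, exon lengths and positions came from GENCODE release M21 on GRCm38 (19993 of 20197 identifiers matched), and older symbols from RefSeq.

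On the log2(value + 1) scale, linear models in limma 3.58.1 (R 4.3.3, moderated with a variance trend) were fitted to all 20197 genes and 4 samples, high against low MMP, with Benjamini-Hochberg adjustment over all genes. A fold change on this scale understates that of low genes. Alternatives were pseudocounts 0.5 and 10, a minimum mean of 10, 2 other scalings, no trend, a replicate block, edgeR 4.0.16 and DESeq2 1.42.0 on recovered reads, and leaving out each sample. On simulated data, limma and edgeR without a block, edgeR with the replicate block and DESeq2 were run. The other settings were not simulated. The genes and lists were chosen with earlier results of these data known. Each gene was named, values per library were given for genes of unadjusted p under 0.05 or with overlapping groups, and full statistics for the 3 of smallest p per stage and the 2 nearest to no difference. From each other list of the division machinery and S phase at most the 2 genes of smallest p were named. Cell type markers were named for their level or as defining markers, and other genes for the sequence they share with a described gene. Labels give no batch or date.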

Additional observations from a re-analysis of the deposited data

How the results depend on the processing

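The direction of every one of the 40 genes was unchanged under the other pseudocounts, filters, scalings, variance models and blocks. Leaving out 1 sample, *Numa1* ran from -0.21 to 0.03 and was above 0 without high MMP replicate 1, and *Spag5* ran from -0.22 without high MMP replicate 2 to 0.39. The cause was not tested. The count of calls among the 40 genes, 0 in limma, was 18 in DESeq2, 9 in edgeR with the replicate block (0.312% of all genes called as higher) and 0 in limma with the replicate block, where 21 genes were higher at an unadjusted p under 0.05 (2.13% of all genes). Same-numbered samples did not deviate together (correlation of deviations -0.421 over 12902 genes, which are not independent), so the shared numbers are not shown to pair them. With the numbers crossed, a choice made after seeing the data, edgeR called 29 of the 40 and 733 of all 20197 genes, and limma called 0. Leaving out 1 sample at a time, limma called 0 throughout, and the count at an unadjusted p under 0.05 ran from 14 (without low MMP replicate 1) and 18 (without low MMP replicate 2) to 30, with 1 residual degree of freedom and the lone sample assumed to vary like the others. Leaving out 1 sample moved the median difference to between 0.37 and 0.47 for early and between 0.31 and 0.57 for late genes, the last without high MMP replicate 1. Neither limma, edgeR without a block nor DESeq2 called 22 of the 40 genes, which with 2 samples per group does not show that these did not differ.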
